A study of Mus musculus with 19 samples.

Results

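The genes described here cover the membrane fusion machinery of vesicle exocytosis and neurotransmitter release, and some act at the Golgi or endosomes. They were taken by symbol from the deposited normalized table: symbols starting with Syt, Stx, Vamp, Cplx, Sv2, Rab3, Rab27, Unc13, Rims or Stxbp, the synapsin-like symbols starting with Syn, and Snap23, Snap25, Snap29, Snap47, Syp and Sypl, without Syne and Synj genes. This gave 94 of 26221 genes. Of these, 76 belong to the families the prefixes stand for, and 18 share only the letters of the prefix (12 Rab30 to Rab39 genes and 6 genes such as Syncrip and Sync), so these 18 are described apart. Rims4, Cplx4 and Vamp7 had no count in any library.

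The libraries came from sorted nasal epithelial cells of mice on a B6.Cg background that all, in every group, carried the transgene Tg(RP23-268L19-EGFP)2Mik, in which a bacterial artificial chromosome with the Chat locus drives eGFP. Chat encodes the enzyme that makes acetylcholine, and eGFP marks cholinergic brush cells, also called tuft cells, which are chemosensory cells of the epithelium. CD45-negative, EpCAM-positive, eGFP-positive cells were sorted by forward and side scatter into a low gate (FSClow, n = 9 libraries) and a high gate (FSChi, n = 5), and EpCAM-positive, eGFP-negative cells were taken for comparison (EpCAM, n = 5). No age or treatment is given, and nothing states that the libraries are from different mice: the p-values below therefore reflect only how these libraries vary, which may be technical.

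Vesicles fuse with the plasma membrane when SNARE proteins on both membranes zip together: a VAMP on the vesicle, and a syntaxin and a SNAP protein on the target membrane. Sec1/Munc18 proteins (the Stxbp genes) and Unc13 proteins assemble the complex, Rab3 and Rab27 GTPases and RIM proteins tether and dock vesicles, and synaptotagmins and complexins make fusion depend on calcium. Neurons use Snap25, Stx1a, Syt1 and Vamp2 for fast synaptic release, whereas Snap23, Stxbp2, Vamp8 and Rab27 proteins are best known from exocytosis in non-neuronal secretory cells such as mast cells and exocrine cells.

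Library totals lay between 1348428 counts (FSChi replicate 2) and 7477695 counts (FSChi replicate 3). Chat, which the gate selected for, lay between 182.9 and 433.4 CPM (the count relative to the TMM-scaled library total) in FSChi, between 447.7 and 587.1 CPM in FSClow and at or under 3.089 CPM in EpCAM. Markers of olfactory sensory neurons, the receptor neurons of the same tissue, differed widely between libraries. The summed level of 12 such markers was 4180 to 7041 CPM in EpCAM and 46.96 to 153.7 CPM in FSClow. In FSChi it was 3680, 1546, 3523 and 1805 CPM in replicates 1, 3, 4 and 5 but 25.72 CPM in replicate 2, where 8 of the 12, among them Cnga2, Stoml3, Gap43 and Stmn2, had no count. Gng13, the one further gene of that marker list, is also active in tuft cells and was left out of the sum. Of all 13 listed markers, 12 were lower in FSClow than in EpCAM and 13 were higher in FSChi than in FSClow (edgeR). Secretory cell markers summed to 396.5 to 11860 CPM in FSChi, 14.9 to 178 CPM in FSClow and 4827 to 17690 CPM in EpCAM, and basal cell markers to 23.92 to 1708, 1.076 to 109.1 and 1203 to 3632 CPM in the same order. Markers of other neurons summed to 55.44 to 450.6 CPM in FSChi, 34.82 to 86.54 CPM in FSClow and 626.9 to 980.8 CPM in EpCAM. Of 5 tested, 4 were lower and 1 higher in FSClow than in EpCAM (edgeR). Leukocyte markers summed to 7.088 to 605, 6.592 to 63.22 and 425.2 to 3354 CPM in FSChi, FSClow and EpCAM. Of 3 tested, 2 were lower and 1 higher in FSClow than in EpCAM, so neither sum stands for each of its markers. The CD45-negative sort is given above for the eGFP-positive gates. Tuft cell markers summed to at least 4392 CPM in every FSChi and FSClow library and to at most 119.4 CPM in EpCAM. In these bulk libraries, fewer cells of a type and less RNA per cell cannot be told apart.

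Filtering on low counts left 70 of the 94 genes (59 of the 76 family members) among 13340 genes tested with edgeR's quasi-likelihood test, and genes with a Benjamini-Hochberg adjusted p under 0.05 over all tested genes are called higher or lower. Of the 70 tested genes, 14 were higher in FSClow than in EpCAM, among them Rab27b, Rab3b, Stx6, Stxbp2, Snap23 and Vamp2. Another 34 were lower, among them Snap25, Syt1, Stx1a and Syp. Together 68.6% of the tested members were called, beside 45.1% of all tested genes. In the higher direction the share was 20% of members beside 22.0% of all genes, and in the lower direction 48.6% beside 23.1%. Without the genes that share only the letters of the prefix, 14 of the 59 family members (23.7%) were higher and 28 (47.5%) lower. The median log2 fold change was -0.74 for the members and 0.05 for all tested genes. With relative log expression scaling the median of all genes in this comparison moved to -0.14, and the share of higher genes among all called genes moved from 48.7% to 38.2%. In the same setting 11 members were higher and 38 lower.

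**Figure D1:**
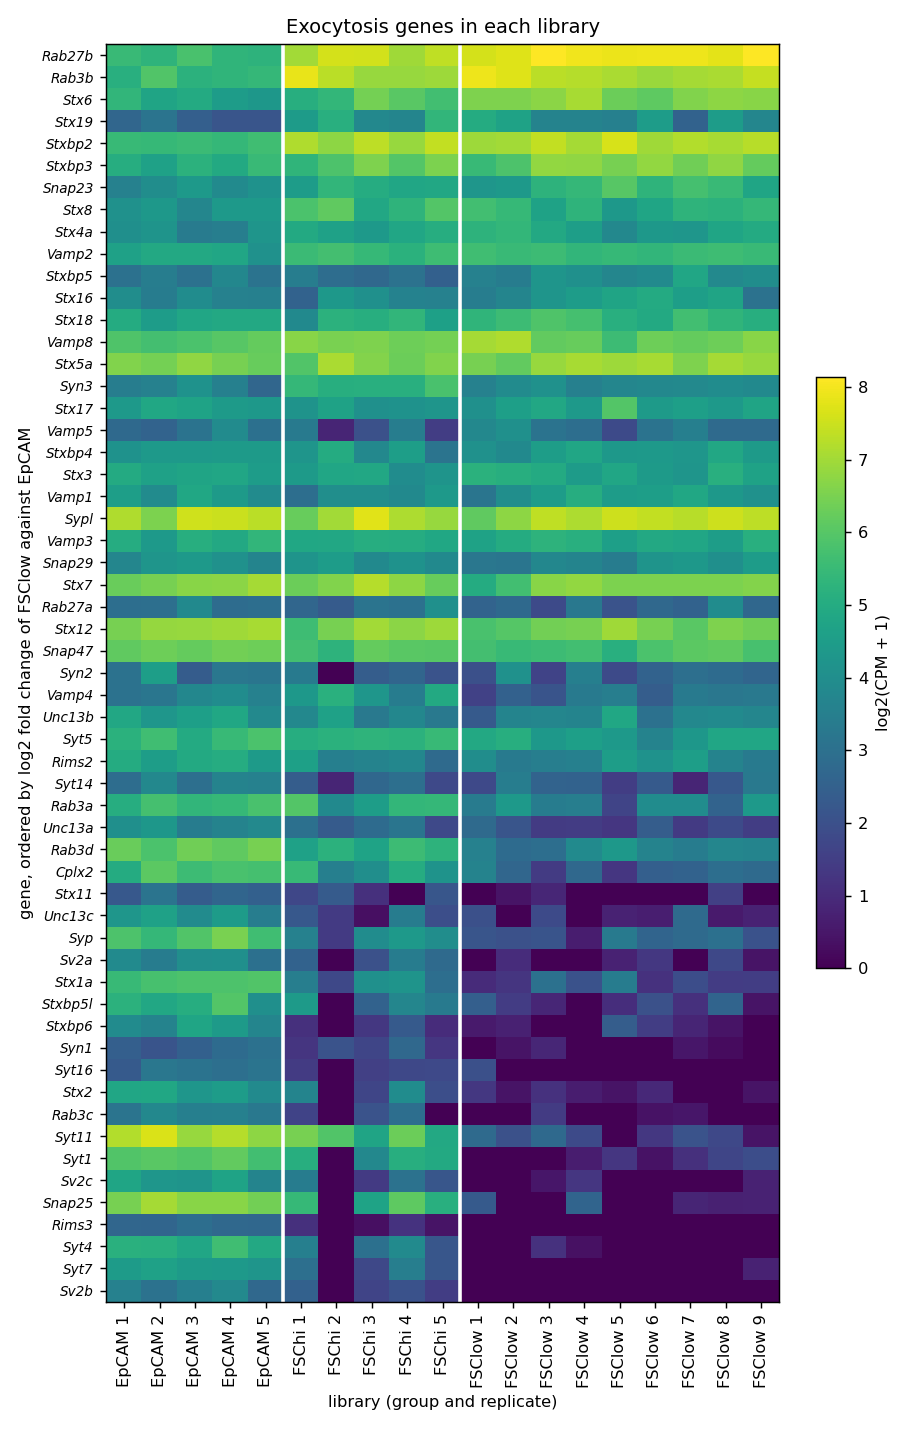
Level of tested family members in each of the 19 libraries, as log2(CPM + 1), with genes ordered from the highest to the lowest log2 fold change of FSClow against EpCAM and white lines between the groups. The upper rows are brighter in FSChi and FSClow than in EpCAM, the lower rows are near 0 in FSClow, and FSChi replicate 2 is at 0 in many of the lower rows where the other FSChi libraries are not.

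Among the small GTPases that bring vesicles to the membrane, Rab27b and Rab3b were higher in the cholinergic cells. Rab27b stood at 44.96, 37.79, 54.65, 39.11 and 36.91 CPM in EpCAM replicates 1 to 5, and in FSClow from 196.3 through a median of 244.7 to 279.8 CPM. FSChi replicates 1 to 5 held 126.7, 196.1, 191.2, 125.8 and 162.7 CPM. No library of one group reached the range of another, and FSChi lay between the others. The log2 fold change of Rab27b was 2.49 ± 0.18 (SE, edgeR adjusted p = 7.1e-11) in FSClow against EpCAM and 1.91 ± 0.18 (SE, adjusted p = 2.66e-08) in FSChi against EpCAM. FSChi was lower than FSClow by a log2 fold change of -0.58 ± 0.16 (SE, adjusted p = 0.0096), a call that ended with RSEM expected counts (adjusted p = 0.0569), in a fit of FSChi and FSClow replicates 1 to 5 alone (0.133) and with the libraries whose single file matched their column (0.168). Its relative Rab27a lay between 2.517 and 15.95 CPM over all libraries and was not called in any comparison.

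Rab3b (Entrez 69908, chromosome 4, 108879070 to 108943324, GRCm38.p6) held 34.36, 59.65, 36.31, 38.95 and 41.42 CPM in EpCAM replicates 1 to 5. Its FSChi values were 230.7, 154.3, 116.2, 117.2 and 122.6 CPM, and FSClow ran from 118.3 through 148.2 to 242.9 CPM. Every library of both cholinergic gates was above every EpCAM library, while the gates overlapped each other. The log2 fold changes against EpCAM were 1.93 ± 0.22 (SE, edgeR adjusted p = 1.51e-07) in FSClow and 1.81 ± 0.24 (SE, adjusted p = 3.84e-06) in FSChi. The other Rab3 genes went the opposite way in FSClow. Rab3d, known from secretory granules of exocrine cells, fell from 74.33 ± 12.40 CPM (SD, n = 5) in EpCAM to 11.29 ± 3.825 CPM (SD, n = 9) in FSClow, with 34.00 ± 9.195 CPM (SD, n = 5) in FSChi, and both gates differed from EpCAM and from each other (edgeR adjusted p = 1.01e-09, 0.00238 and 1.91e-05). Rab3a, the main Rab3 of synapses, was at 44.56 ± 9.119 CPM in EpCAM and 11.68 ± 6.121 CPM in FSClow (edgeR adjusted p = 8.35e-05). In FSChi its mean of 35.81 ± 18.44 CPM was not called different from EpCAM (adjusted p = 0.642) but was above FSClow (adjusted p = 0.00157). Rab3c was at 10.02 ± 2.010 CPM in EpCAM and 0.2648 ± 0.5521 CPM in FSClow, a log2 fold change of -5.28 ± 0.81 (SE, adjusted p = 7.9e-06), or -6.51 without FSClow replicate 3.

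The Sec1/Munc18 genes, whose proteins clasp syntaxins and start SNARE assembly, included 3 called higher and 3 called lower in FSClow than in EpCAM. Stxbp2 (Munc18-2; Entrez 20911, chromosome 8, 3630960 to 3643998) held 43.98, 42.78, 45.86, 41.76 and 49.26 CPM in EpCAM replicates 1 to 5. FSChi values were 142.3, 107.7, 159.2, 117.2 and 165.5 CPM, and FSClow ran from 121.5 through 134.5 to 199.0 CPM. All 14 cholinergic libraries exceeded all 5 EpCAM libraries, by log2 fold changes of 1.70 ± 0.17 (SE, edgeR adjusted p = 1.16e-08) in FSClow and 1.63 ± 0.18 (SE, adjusted p = 2.3e-07) in FSChi. Stxbp3 (Munc18c) was higher by 1.38 ± 0.25 in FSClow and 1.03 ± 0.27 in FSChi on the log2 scale (edgeR adjusted p = 6.48e-05 and 0.00664). The second call ended with RSEM expected counts (adjusted p = 0.0832) and with the libraries whose single file matched their column (0.615).

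The related Stxbp5 genes encode tomosyns, which bind SNAREs and hold fusion back. Stxbp5 was at 15.08 ± 5.145 CPM in FSClow, 6.831 ± 1.993 CPM in FSChi and 8.871 ± 2.325 CPM in EpCAM. It was called higher in FSClow than in EpCAM (edgeR adjusted p = 0.0313), a call made in 8 of 23 alternatives (with relative log expression scaling, adjusted p = 0.11), and lower in FSChi than in FSClow (log2 fold change -1.13 ± 0.30, SE, adjusted p = 0.00669), which ended with the libraries whose single file matched their column (adjusted p = 0.281) and in a fit of FSChi and FSClow replicates 1 to 5 alone (adjusted p = 0.117). Stxbp5l was lower in FSClow, at 1.978 ± 1.823 CPM beside 34.73 ± 16.55 CPM in EpCAM (log2 fold change -4.06 ± 0.58, SE, adjusted p = 3.58e-06). Stxbp6, or amisyn, was lower in both gates, with 16.89 ± 6.406 CPM in EpCAM, 1.527 ± 1.449 CPM in FSChi and 0.9381 ± 1.386 CPM in FSClow (edgeR adjusted p = 0.00203 and 9e-06). Its log2 fold change in FSClow was -4.15, or -5.05 without FSClow replicate 5, and in FSChi -3.28, or -3.98 without FSChi replicate 4.

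**Figure D2:**
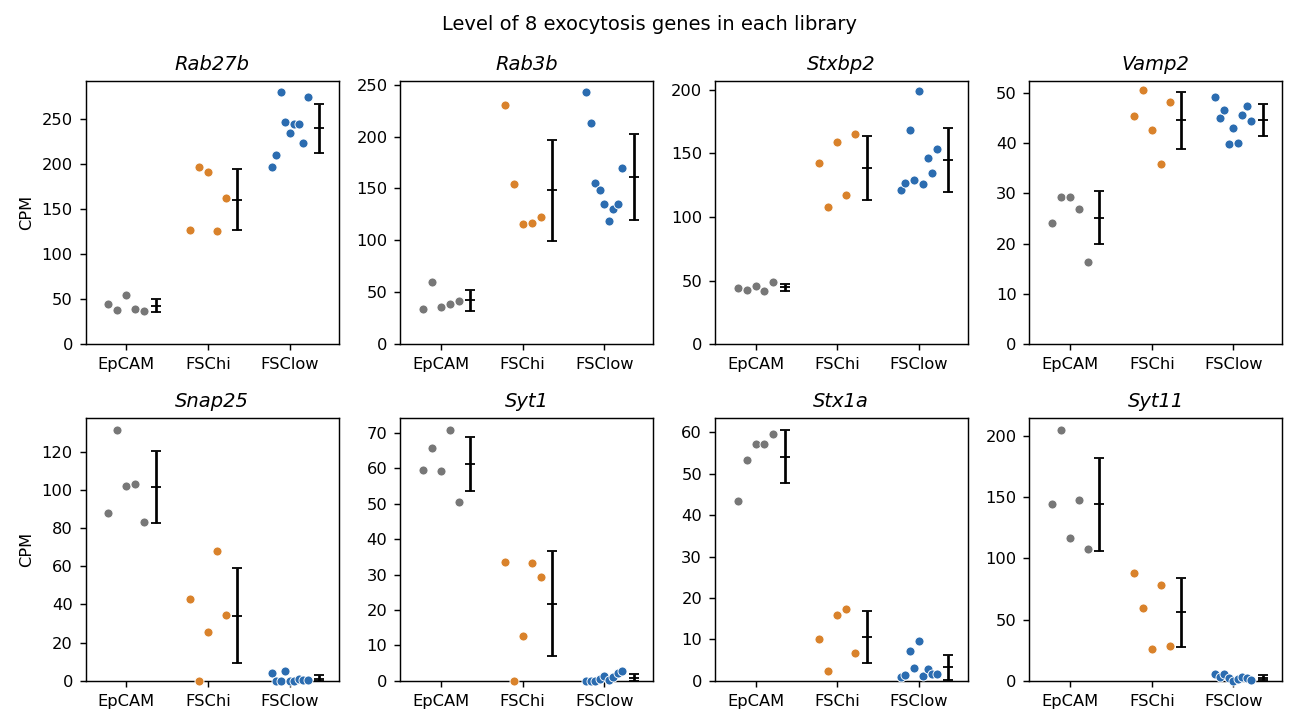
Level of 8 exocytosis genes in each library, in CPM on a linear axis from 0, with 1 point per library in order of replicate and a black mark for the mean ± SD of each group. Rab27b, Rab3b, Stxbp2 and Vamp2 are higher in every FSChi and FSClow library than in any EpCAM library, Snap25, Syt1, Stx1a and Syt11 are near 0 or low in FSClow, and FSChi replicate 2 lies at 0 for Snap25 and Syt1.

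The 2 genes by which the group is best known, Snap25 and Vamp2, went in opposite directions. Vamp2 (synaptobrevin 2; Entrez 22318, chromosome 11, 69088528 to 69092381) held 24.15, 29.23, 29.20, 26.96 and 16.42 CPM in EpCAM replicates 1 to 5, and 45.38, 50.62, 42.60, 35.84 and 48.20 CPM in FSChi. In FSClow it ran from 39.84 through 45.05 to 49.08 CPM. The cholinergic libraries were all above the EpCAM libraries, with the same log2 fold change of 0.82 in FSClow (± 0.17, SE, edgeR adjusted p = 0.000295) and in FSChi (± 0.19, SE, adjusted p = 0.00234).

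Snap25, the SNAP protein of neurons (Entrez 20614, chromosome 2, 136713439 to 136782428), held 87.76, 131.2, 102.0, 103.0 and 83.30 CPM in EpCAM. In FSChi replicates 1 to 5 it was 43.03, 0, 25.53, 68.13 and 34.38 CPM. In FSClow it ran from 0 through a median of 0.6852 to 5.159 CPM. EpCAM libraries were thus above all others, 4 FSChi libraries lay in between, and FSChi replicate 2 lay with FSClow: no count there allows up to 2.411 CPM, counting error only. The log2 fold change of Snap25 was -6.34 ± 0.71 (SE, edgeR adjusted p = 3.38e-07) in FSClow against EpCAM, or -7.27 without FSClow replicate 4. FSChi was not called different from EpCAM (-1.53 ± 0.67, SE, adjusted p = 0.10, and not called in any of 19 alternatives) and was higher than FSClow by 4.80 ± 0.71 (SE, adjusted p = 4.38e-05), or by 5.69 without FSClow replicate 4. Snap23, the SNAP protein found outside the nervous system, was at 15.16 ± 3.264 CPM in EpCAM, 29.87 ± 6.879 CPM in FSChi and 38.05 ± 14.89 CPM in FSClow. It was higher in FSClow by a log2 fold change of 1.33 ± 0.27 (SE, adjusted p = 0.000306). In FSChi it was higher by 0.96 ± 0.30 (SE, adjusted p = 0.0203), a call that ended without EpCAM replicate 1 (adjusted p = 0.0767) or replicate 4 (0.0639), without FSChi replicate 2 (0.0502) or replicate 3 (0.0556), and with RSEM expected counts (0.0709). Snap47 was slightly lower in FSClow (log2 fold change -0.55 ± 0.18, SE, adjusted p = 0.0129) and Snap29 was not called in any comparison; the deposited counting is not stated to use strand, and Snap47 overlaps Jmjd4 and Snap29 overlaps Pi4ka.

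Levels can be compared between genes only per transcript length, for which the TPM values of the single-library files were used (FSClow n = 9, FSChi n = 4, EpCAM n = 5). In EpCAM, Snap25 was at 75.38 ± 15.54 TPM and Snap23 at 10.01 ± 2.561 TPM. In FSClow, Snap25 was at 0.7278 ± 1.044 TPM and Snap23 at 29.70 ± 18.05 TPM, so the order of both genes was turned around. In FSChi both stood within their spread, at 22.08 ± 19.12 TPM and 16.89 ± 5.080 TPM. Snap47 had the highest mean of the SNAP genes in FSClow, at 53.37 ± 19.56 TPM, beside 69.36 ± 5.225 TPM in EpCAM. Among the Sec1/Munc18 genes, Stxbp2 was at 40.65 ± 5.006 TPM in EpCAM and 130.4 ± 47.69 TPM in FSClow.

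The most abundant exocytosis genes of FSClow per length were Rab3b at 244.9 ± 26.86 TPM, Vamp8 at 239.9 ± 36.24 TPM, Stx5a at 154.0 ± 49.31 TPM, Rab27b at 132.0 ± 32.17 TPM and Stxbp2 at 130.4 ± 47.69 TPM. The first pair, and the last pair, did not differ beyond their spread. In EpCAM the order began with Vamp8 at 164.6 ± 19.67 TPM, Sypl at 118.7 ± 28.58 TPM, Stx5a at 112.0 ± 25.67 TPM and Snap25. In FSChi Vamp8 (224.1 ± 24.84 TPM) and Rab3b (204.7 ± 40.69 TPM) led. Vamp8, the VAMP of mast cell and exocrine granules and of endosomes, was thus among the most abundant members in all groups. In the counts it was called higher in FSClow (edgeR log2 fold change 0.55, SE 0.21, adjusted p = 0.0336), a call made in 5 of 23 alternatives (with relative log expression scaling, adjusted p = 0.168), and was not called in FSChi (0.57 ± 0.23, SE, adjusted p = 0.0756).

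**Figure D3:**
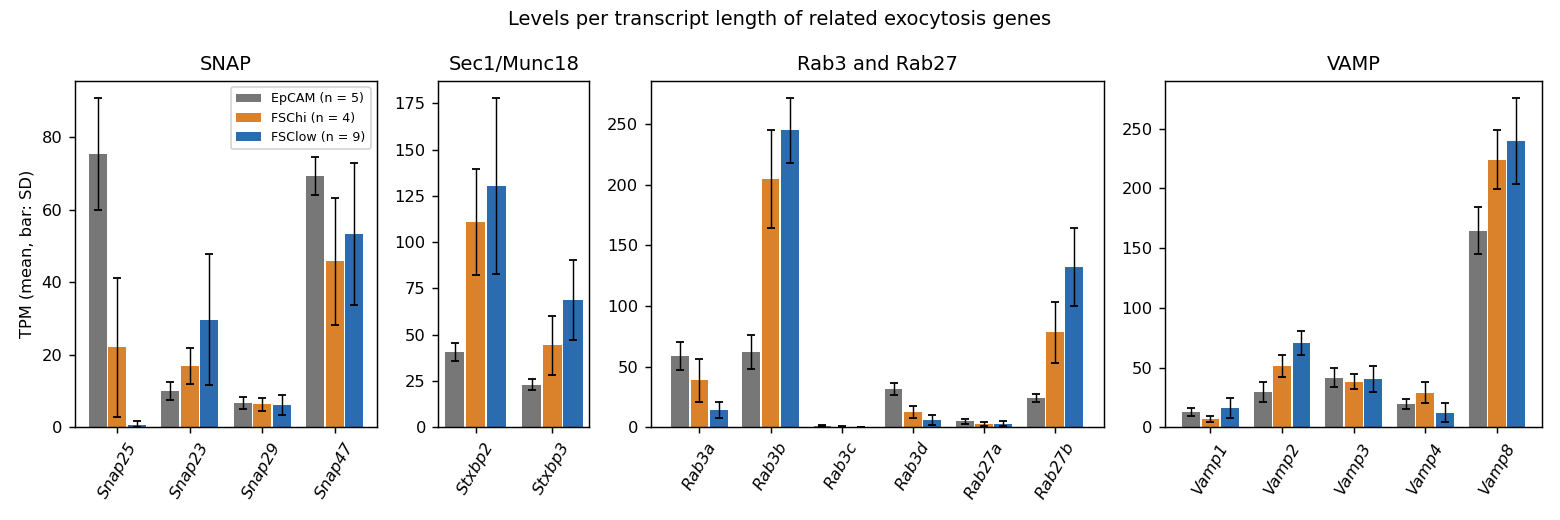
Mean level per transcript length of related exocytosis genes in the 3 groups, in TPM on a linear axis from 0, with bars for 1 SD over libraries. Snap25 is taller in EpCAM than in FSClow. Genes with their tallest bar in FSClow include Snap23, Stxbp2, Stxbp3, Rab3b, Rab27b, Vamp2 and Vamp8.

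Syntaxins, the target-membrane SNAREs, were all tested (15 of 15), and 6 were higher and 3 lower in FSClow than in EpCAM. Stx6, a syntaxin of the trans-Golgi network and endosomes (Entrez 58244, chromosome 1, 155158628 to 155207567), held 40.05, 26.14, 30.13, 21.50 and 18.83 CPM in EpCAM and 33.62, 40.98, 86.14, 65.14 and 49.62 CPM in FSChi. FSClow ran from 68.97 through 95 to 133.0 CPM, above every EpCAM library. The log2 fold change was 1.83 ± 0.24 (SE, edgeR adjusted p = 6.91e-07) in FSClow and 1.02 ± 0.25 (SE, adjusted p = 0.00398) in FSChi. The FSChi call ended with the libraries whose single file matched their column (log2 fold change 0.61, adjusted p = 0.21). FSChi was below FSClow by -0.81 ± 0.22 (SE, adjusted p = 0.00994). That call ended in the FSChi and FSClow fit named for Rab27b, which used only some FSClow replicates (-0.82, adjusted p = 0.0623).

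Stx8, an endosomal SNARE, was higher by log2 fold changes of 1.01 ± 0.25 in FSClow and 1.53 ± 0.28 in FSChi (SE, edgeR adjusted p = 0.0017 and 0.00022). Stx4a, the general plasma membrane syntaxin, was higher by 0.91 ± 0.26 and 0.92 ± 0.29 (adjusted p = 0.00674 and 0.0219), and its FSChi call ended with RSEM expected counts (adjusted p = 0.148) and without FSChi replicate 1 (0.0615) or replicate 5 (0.0694) or EpCAM replicate 3 (0.0836) or replicate 4 (0.0829). With a replicate block over replicates 1 to 5, the FSClow calls of Stx8 (edgeR adjusted p = 0.0567) and Stx4a (0.0812) ended. Stx19 was at 4.945 ± 1.830 CPM in EpCAM, 16.62 ± 8.452 CPM in FSClow and 23.99 ± 12.51 CPM in FSChi (adjusted p = 0.001 and 0.000571). Stx19 lies within Arl13b, whose own level was not called different (44.71 ± 2.052 CPM in EpCAM, 53.57 ± 28.16 CPM in FSClow, adjusted p = 0.523), so reads of both may not be separable. Stx18 was called higher in FSClow (adjusted p = 0.0322), a call made in 7 of 23 alternatives (with relative log expression scaling, adjusted p = 0.136). Stx18 overlaps Nsg1, which was lower in FSClow (4.424 ± 4.512 CPM beside 514.5 ± 111.4 CPM in EpCAM, adjusted p = 2.46e-07).

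Lower syntaxins included Stx1a, the syntaxin of synaptic release (Entrez 20907, chromosome 5, 135023482 to 135051100). It held 43.39, 53.23, 57.09, 57.18 and 59.65 CPM in EpCAM, 10.11, 2.411, 15.99, 17.36 and 6.734 CPM in FSChi, and 0.9916 through 1.759 to 9.680 CPM in FSClow. All cholinergic libraries were below all EpCAM libraries, by log2 fold changes of -4.04 ± 0.43 (SE, edgeR adjusted p = 3.36e-08) in FSClow and -2.29 ± 0.47 (SE, adjusted p = 0.000924) in FSChi. Stx2 was at 21.60 ± 5.844 CPM in EpCAM and 0.5865 ± 0.5270 CPM in FSClow (adjusted p = 2.26e-07). In FSChi, Stx2 was at 6.287 ± 6.438 CPM, a log2 fold change of -1.70 (adjusted p = 0.0411), or -2.28 without FSChi replicate 4, and was called in 7 of 19 alternatives (without FSChi replicate 3, adjusted p = 0.0929). Stx5a, a Golgi syntaxin and the most abundant of the family, was not called in any comparison.

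The 300 bases around the transcription start of both Stx6 and Rab3b, which were higher in both gates, are shown here because an octamer, the letters ATGCAAAT bound by POU factors such as the tuft cell regulator Pou2f3, was searched in all promoter windows. Sequences are from RefSeq (GRCm38.p6), 250 bases before to 50 after a start, 5′ to 3′ on the gene's strand. Entries existed for 70 of the 94 genes, in 89 windows. Capitals mark the octamer ATGCAAAT, the GC box GGGCGG and the TATA box TATAAA, each searched on both strands. The Stx6 window is chr1:155158453-155158752 on the plus strand and the Rab3b window is chr4:108878820-108879119 on the plus strand.
Stx6: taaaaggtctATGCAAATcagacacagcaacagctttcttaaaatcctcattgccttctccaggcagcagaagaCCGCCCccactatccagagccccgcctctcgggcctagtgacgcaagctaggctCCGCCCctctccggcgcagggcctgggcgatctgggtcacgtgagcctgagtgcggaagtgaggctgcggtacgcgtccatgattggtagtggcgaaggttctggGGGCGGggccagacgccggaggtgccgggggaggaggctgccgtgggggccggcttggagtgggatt
Rab3b: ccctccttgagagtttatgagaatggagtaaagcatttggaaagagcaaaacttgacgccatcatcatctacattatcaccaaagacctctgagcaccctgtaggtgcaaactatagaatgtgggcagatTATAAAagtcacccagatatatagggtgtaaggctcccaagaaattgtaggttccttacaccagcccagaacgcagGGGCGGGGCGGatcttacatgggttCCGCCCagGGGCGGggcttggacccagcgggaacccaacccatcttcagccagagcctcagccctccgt
The octamer was in 1.74% of all 32851 windows and in 1 of the 89 member windows, that of Stx6. GC boxes were in 65.2% of member windows and 35.7% of all windows, and in 63.6% of the windows both of members higher and of members lower in FSClow than in EpCAM. In Rab3b, 2 of the 4 GC boxes overlap, and a TATA box lies upstream of them. TATA boxes were in 6.74% of member windows and 13.6% of all windows. A match of letters is a description and no binding was measured here.

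The synaptotagmins, calcium sensors of vesicle fusion, were mostly low in FSClow. Of 17 synaptotagmin genes only 7 passed the filter on low counts, and 6 of these were lower in FSClow than in EpCAM, while Syt14 was not called. Syt1, the fast calcium sensor of synaptic vesicles (Entrez 20979, chromosome 10, 108497650 to 109010980), held 59.49, 65.83, 59.33, 70.74 and 50.46 CPM in EpCAM and 33.62, 0, 12.77, 33.23 and 29.42 CPM in FSChi. FSClow ran from 0 through 0.5732 to 2.815 CPM, below every EpCAM library. Its log2 fold change was -5.83 ± 0.59 (SE, edgeR adjusted p = 2.68e-08) in FSClow, while FSChi was not called different from EpCAM (-1.45 ± 0.56, SE, adjusted p = 0.0598; with relative log expression scaling 0.0432, and without FSChi replicate 4 0.0485).

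Syt11, a synaptotagmin that does not bind calcium (Entrez 229521, chromosome 3, 88744699 to 88775159), had the highest level of the family in EpCAM, at 144.5, 204.4, 116.6, 147.9 and 107.3 CPM. FSChi held 87.70, 59.46, 25.93, 77.84 and 28.71 CPM and FSClow ran from 0 through 2.580 to 5.949 CPM. The 3 groups did not overlap, and FSChi replicate 2 lay within the range of its group. The log2 fold changes were -5.75 ± 0.43 (SE, edgeR adjusted p = 2.36e-10) in FSClow against EpCAM and 4.38 ± 0.42 (SE, adjusted p = 9.91e-08) in FSChi against FSClow. FSChi was called lower than EpCAM (-1.37 ± 0.42, SE, adjusted p = 0.0207), but not without EpCAM replicate 2 (adjusted p = 0.0561) or FSChi replicate 3 (0.0512) or replicate 5 (0.051).

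Syt7, a slow calcium sensor of granules, had 569 counts over the EpCAM libraries and 2 over the FSClow libraries, a ratio of 288.4 (95% counting interval 79.47 to 2387). Both counts were in FSClow replicate 9, without which EpCAM was at least 172.8-fold higher, taking 3 counts over the group as the floor. FSChi held 6.819, 0, 2.419, 10.08 and 3.544 CPM of Syt7. Syt4, found on neuronal vesicles, was at 34.62 ± 8.327 CPM in EpCAM, 6.975 ± 5.503 CPM in FSChi and 0.1717 ± 0.4184 CPM in FSClow, a log2 fold change of -7.61 ± 0.66 in FSClow (SE, edgeR adjusted p = 1.55e-09), or -8.97 without FSClow replicate 3. Syt5 was the one called synaptotagmin that kept a moderate level in FSClow, at 23.26 ± 6.578 CPM beside 42.73 ± 9.935 CPM in EpCAM (adjusted p = 0.00147).

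Among vesicle membrane proteins, synaptophysin and the SV2 genes were low in FSClow, whereas Sypl was not called. Synaptophysin, Syp, the marker protein of synaptic vesicles (Entrez 20977, chromosome X, 7638580 to 7653256), held 56.55, 41.83, 59.15, 88.97 and 48.35 CPM in EpCAM, 10.82, 1.607, 14.51, 19.60 and 14.88 CPM in FSChi, and 0.5732 through 3.470 to 8.963 CPM in FSClow. Both gates lay below EpCAM without overlap, by log2 fold changes of -3.68 ± 0.39 (SE, edgeR adjusted p = 3.49e-08) and -2.20 ± 0.44 (SE, adjusted p = 0.000673) in FSClow and FSChi. Sypl, its relative outside neurons, was at 150.3 ± 36.95 CPM in EpCAM, 133.8 ± 51.25 CPM in FSChi and 147.4 ± 36.85 CPM in FSClow and was not called. All 3 SV2 genes, membrane glycoproteins of synaptic vesicles, were lower in FSClow. Sv2c had a log2 fold change of -5.96 ± 0.70 (SE, adjusted p = 1.74e-07), or -7.07 without FSClow replicate 4, and Sv2b had 264 counts in EpCAM and none in FSClow, where EpCAM was at least 89.2-fold higher.

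Synapsins coat synaptic vesicles. Syn1 was at 5.197 ± 1.536 CPM in EpCAM, 2.823 ± 1.816 CPM in FSChi and 0.1949 ± 0.2894 CPM in FSClow (log2 fold change -4.63 ± 0.63 in FSClow, SE, edgeR adjusted p = 1.69e-06), and Syn2 was not called. Syn3 had a pattern of its own. It held 10.01, 10.93, 16.66, 10.75 and 5.423 CPM in EpCAM, 41.62, 32.94, 33.73, 33.97 and 54.58 CPM in FSChi, and 10.60 through 13.28 to 16.36 CPM in FSClow. FSChi was above both other groups in every library, FSChi replicate 2 included, while the other 2 groups overlapped. Its log2 fold changes were 1.87 ± 0.27 against EpCAM (SE, adjusted p = 1.08e-05) and 1.58 ± 0.22 against FSClow (SE, adjusted p = 1.29e-05). With RSEM expected counts the first was 1.02 and was not called (adjusted p = 0.0894). Timp3 and Fbxo7 overlap Syn3, and Timp3 itself was at 130.8 ± 87.28 CPM in EpCAM, 15.26 ± 5.983 CPM in FSChi and 2.604 ± 2.113 CPM in FSClow.

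All 3 tested Unc13 genes, which open syntaxin for SNARE assembly, were lower there: Unc13a at 2.707 ± 1.546 CPM beside 13.73 ± 3.548 CPM in EpCAM (edgeR adjusted p = 1.01e-05), Unc13c at 1.563 ± 1.978 CPM beside 17.54 ± 5.696 CPM (adjusted p = 0.000114), and Unc13b at 12.64 ± 6.546 CPM beside 22.13 ± 6.491 CPM (adjusted p = 0.0486). Unc13a overlaps Colgalt1, which was itself lower in FSClow (24.21 ± 8.035 CPM beside 55.66 ± 7.312 CPM, adjusted p = 2.6e-05), and Unc13b overlaps Fam214b, which was not called, so reads may not be separable. The Unc13b call ended without FSClow replicate 1, 3, 6, 8 or 9 or EpCAM replicate 1, 2, 3 or 4 (adjusted p between 0.0546 and 0.0866). The log2 fold change of Unc13c was -3.58, or -4.33 without FSClow replicate 7. Cplx2, a complexin, which binds assembled SNAREs, held 31.22, 67.25, 46.98, 54.69 and 51.82 CPM in EpCAM, 43.73, 10.45, 15.05, 31.73 and 17.01 CPM in FSChi, and 1.434 through 5.460 to 11.40 CPM in FSClow. Its log2 fold change was -3.25 ± 0.35 in FSClow (SE, adjusted p = 5.67e-08), whereas the other complexins were not tested at their few counts. RIM proteins organise the release site. Rims2 was lower in both gates, at 27.19 ± 5.417 CPM in EpCAM, 12.87 ± 6.580 CPM in FSChi and 14.09 ± 5.340 CPM in FSClow (adjusted p = 0.0227 and 0.00868), with the first call lost without FSChi replicate 5 (0.0544). Rims3 had 160 counts in EpCAM and none in FSClow, where EpCAM was at least 54.06-fold higher.

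Promoters of both Unc13a and Syn1 are shown because the RE1 element, bound by the neuronal gene repressor REST, was searched as its left arm TTCAGCACC and its right arm, on both strands. Capitals mark these arms, the cAMP response element TGACGTCA and GC boxes. The Unc13a window is chr8:71671708-71672007 and the Syn1 window is chrX:20920869-20921168, both on the minus strand of GRCm38.p6 and printed 5′ to 3′ along the gene.
Unc13a: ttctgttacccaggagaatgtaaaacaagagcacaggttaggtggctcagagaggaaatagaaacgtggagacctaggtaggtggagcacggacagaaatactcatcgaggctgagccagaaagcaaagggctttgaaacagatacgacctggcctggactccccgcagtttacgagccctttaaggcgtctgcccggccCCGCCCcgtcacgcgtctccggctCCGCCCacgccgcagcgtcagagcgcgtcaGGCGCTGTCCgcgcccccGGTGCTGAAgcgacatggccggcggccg
Syn1: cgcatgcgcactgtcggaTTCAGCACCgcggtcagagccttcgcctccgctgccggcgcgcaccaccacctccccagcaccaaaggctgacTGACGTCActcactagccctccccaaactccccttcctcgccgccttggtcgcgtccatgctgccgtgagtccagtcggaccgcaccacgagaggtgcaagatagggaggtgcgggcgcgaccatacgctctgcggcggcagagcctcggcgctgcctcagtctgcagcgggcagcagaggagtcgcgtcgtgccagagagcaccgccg
The left arm was in 0.371% of all windows and in 2 of the 89 member windows, those of Unc13a and Syn1. The right arm was in 0.642% of all windows and in 2 member windows, those of Unc13a and Syt6. Unc13a was the one member with both arms, which lie just after the start. The cAMP response element was in 1.79% of all windows and in 2 member windows, those of Syn1 and Stxbp3. The EBF palindrome, the motif of an olfactory neuron transcription factor family, was in 0.904% of all windows and in those of Stx2 and Sync among the members.

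**Figure D4:**
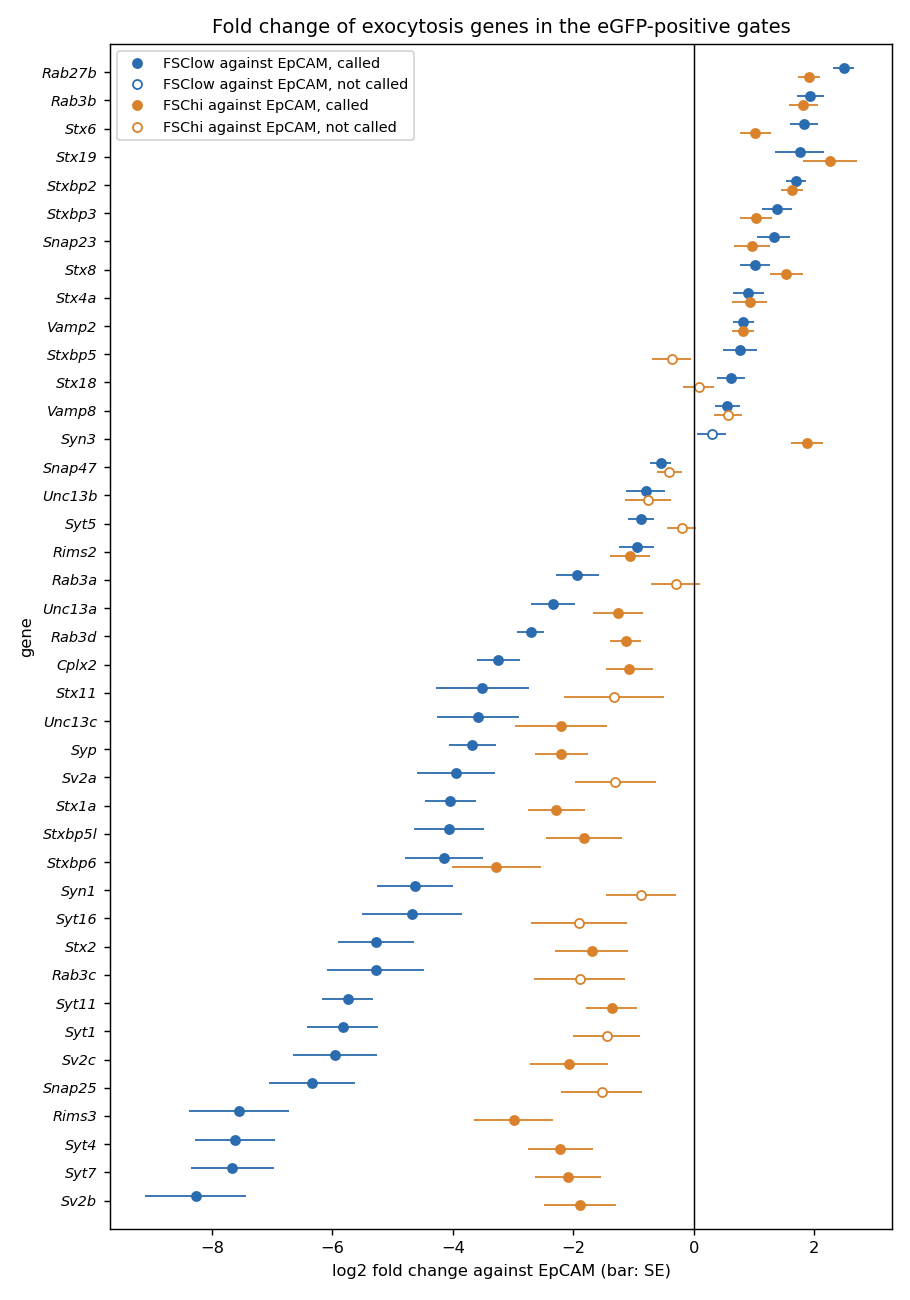
Log2 fold change against EpCAM with its SE for family members called in FSClow or FSChi, where filled points are called at an edgeR adjusted p under 0.05 and open points are not; the fitted values of Sv2b and Rims3 in FSClow rest on no count there and are no bounds. Genes higher in both gates lie to the right of 0, whereas for most lower genes the FSChi point lies nearer to 0 than the FSClow point.

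In FSChi against EpCAM, 12 members were higher and 20 lower, or 45.7% of the tested members beside 25.6% of all tested genes. The shares by direction were 17.1% beside 13.5% for higher genes and 28.6% beside 12.2% for lower ones, and the median log2 fold change was -0.46 beside -0.02 for all genes. Both cholinergic groups are set against the same EpCAM libraries, so their comparisons are not independent. The members higher in both numbered 11, among them Stx6, Stx8, Vamp2, Stx19, Rab27b, Snap23, Stxbp3, Rab3b, Stx4a and Stxbp2. As a description, this is 15.7% of the tested members, beside 10.7% of all tested genes. The count of lower genes was not stable: it was 13 without FSChi replicate 2 or replicate 3, 11 without FSChi replicate 5 and 12 without EpCAM replicate 4.

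The direct comparison of both gates gave 27 members higher and 3 lower in FSChi than in FSClow, 42.9% of the tested members beside 24.8% of all genes. Higher genes made up 38.6% of the members beside 15.5% of all genes, and lower genes 4.29% beside 9.30%. The 3 lower genes were Rab27b, Stx6 and Stxbp5. Of the 27, 25 (92.6%) were also lower in FSClow than in EpCAM, 22 of them family members and 3 Rab30 to Rab39 genes. Of all 2069 genes higher in FSChi than in FSClow, 1602 (77.4%) were also lower in FSClow than in EpCAM. Both comparisons hold the same FSClow libraries, with opposite sign, so these counts are a description: the pattern was found in 35.7% of the tested members and in 12% of all tested genes. The remaining pair were Syn3 and Vamp4. Vamp4, a VAMP of the trans-Golgi network, was at 22.34 ± 9.858 CPM in FSChi, 6.636 ± 3.019 CPM in FSClow and 10.74 ± 3.016 CPM in EpCAM (FSChi against FSClow log2 fold change 1.71 ± 0.35, SE, edgeR adjusted p = 0.000686). Fitting FSChi and FSClow alone kept 14 of the 27 higher calls, since 12 of the 27 did not pass the filter on low counts in those libraries and Unc13a was tested and not called (adjusted p = 0.0843). Without FSChi replicate 2, 27 were higher and 4 lower.

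These 25 genes are given beside the olfactory neuron markers for each FSChi library. Their summed level was 498.7, 205.7, 277.3, 526.2 and 353.0 CPM in FSChi replicates 1 to 5, beside 3680, 25.72, 1546, 3523 and 1805 CPM of the 12 markers. In FSChi replicate 2 the sum was lowest and 13 of the 25 genes had no count, among them Snap25, Syt1, Syt4, Syt7 and Sv2c, whereas in FSChi replicates 1, 3 and 4 all 25 had counts. Per 100 CPM of the markers, the 25 genes held 13.55, 17.94, 14.93 and 19.55 CPM in FSChi replicates 1, 3, 4 and 5, within or near the EpCAM range of 14.83 to 21.86 CPM. In FSClow, where the markers were low too, this value was 56.29 to 175.6 CPM, and in FSChi replicate 2 it was 799.8 CPM. The part of olfactory neuron RNA in these differences was not tested. Other genes of the 25 were well covered in replicate 2: Syt11 at 59.46 CPM, Rab3d at 36.16 CPM, Syt5 at 35.35 CPM, Rab3a at 13.66 CPM and Cplx2 at 10.45 CPM. For Syt11, Rab3d and Syt5 that library lay above every FSClow library, where the highest values were 5.949, 19 and 33.44 CPM. For Rab3a and Cplx2 it did not, as FSClow reached 20.05 and 11.4 CPM.

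The 11 genes higher in both gates were as high in FSChi replicate 2 as in the other FSChi libraries. Their summed level was 748.9, 781.9, 786.0, 629.4 and 811.9 CPM in FSChi replicates 1 to 5, 817.6 to 970.2 CPM in FSClow and 246.7 to 279.2 CPM in EpCAM. The 3 groups did not overlap, and FSChi replicate 2 lay within its group. The 25 genes, by contrast, summed to 74.71 to 107.6 CPM in FSClow and 851.7 to 1049 CPM in EpCAM. These sums follow from how the genes were grouped and are given as a description.

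**Figure D5:**
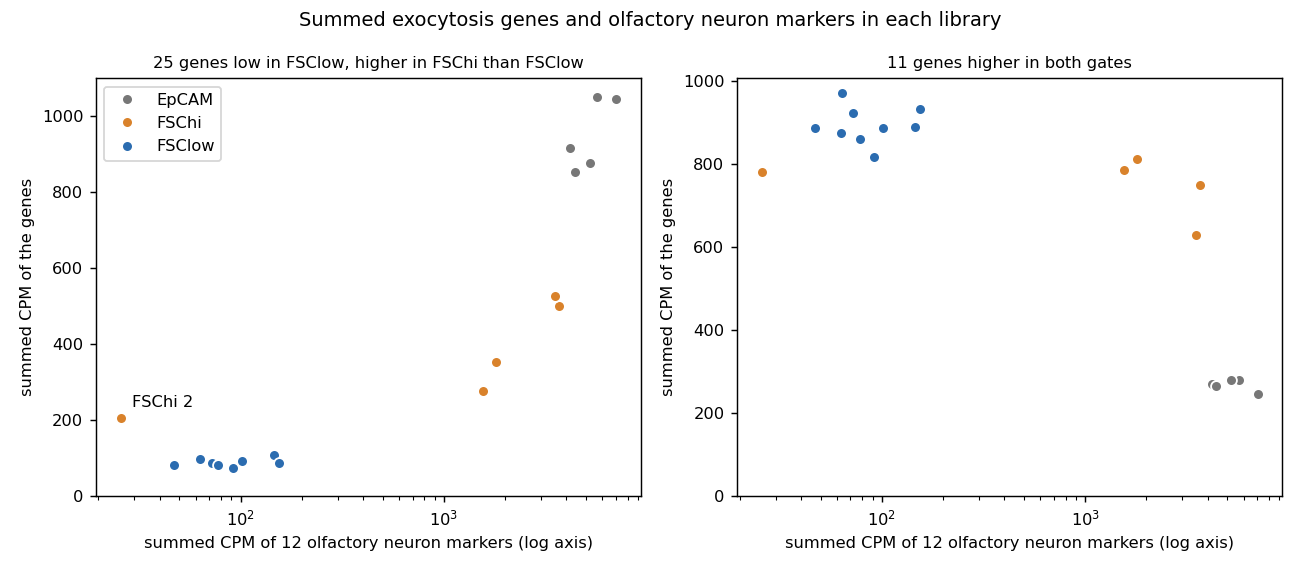
Summed CPM of 25 exocytosis genes that were lower in FSClow than in EpCAM and higher in FSChi than in FSClow (left) and of 11 that were higher in both gates than in EpCAM (right), against the summed CPM of 12 olfactory neuron markers on a log axis, with 1 point per library. On the left FSChi replicate 2, with 25.72 CPM of the markers, is the lowest FSChi library at 205.7 CPM but lies above all FSClow libraries, and on the right it lies with the other FSChi libraries.

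The 18 genes taken by prefix alone gave 11 tested, of which 6 were lower in FSClow than in EpCAM and 5 were not called. Rab36 was at 3.820 ± 1.456 CPM in FSClow beside 48.13 ± 6.367 CPM in EpCAM (log2 fold change -3.65 ± 0.37, SE, edgeR adjusted p = 1.59e-08), and Rab30, Rab31, Rab32, Rab34 and Rab39b were lower too (Rab32 not without EpCAM replicate 5, adjusted p = 0.088). Syncrip, an RNA-binding protein gene, was not called (88.61 ± 13.47 CPM beside 65.61 ± 12.22 CPM, adjusted p = 0.0592).

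The 24 genes that did not pass the filter were at or under 4.584 CPM in every group mean. Their highest values included Syndig1, which was without a count in FSClow and at 4.584 CPM in FSChi, Rab33a at 3.490 CPM in EpCAM and Syt3 at 3.282 CPM in EpCAM. Complexin 1 had 20 counts over the FSChi libraries and 1 each over FSClow and EpCAM, but these lay in 2 of the 5 FSChi libraries (2.116 and 3.898 CPM in replicates 1 and 5). Unc13d, which primes granules of leukocytes, was at 0.6279 CPM in FSClow, 2.437 CPM in FSChi and 1.714 CPM in EpCAM.

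Genes of neighbouring steps of exocytosis, from lists made with earlier results of these data known, are given by count. Of all tested genes, 22.0% were higher and 23.1% lower in FSClow than in EpCAM. Of 9 tested dense-core granule genes, which store peptides, 7 were lower in FSClow than in EpCAM and 2 were not called, with a median log2 fold change of -5.28. Chgb, a granin, had 464 counts in EpCAM and 1 in FSClow, a ratio of 470.4 (95% counting interval 84 to 18620). Of 20 tested docking, priming and active zone genes, 3 were higher and 10 lower. Ppfia4, a liprin of the release site, was at 28.84 ± 9.069 CPM in FSClow, 26.28 ± 14.71 CPM in FSChi and 1.886 ± 1.389 CPM in EpCAM (edgeR adjusted p = 7.82e-08 and 8.23e-07). Of 11 tested exocyst genes, whose complex tethers vesicles in most cells, 2 were higher and 1 lower, and of 17 tested SNARE recycling and other SNARE genes 3 were higher and 1 lower.

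Of 9 tested presynaptic calcium channel genes, 3 were higher and 4 lower in FSClow than in EpCAM, and beta subunits went in both directions. Cacnb4, a channel beta subunit, was at 120.6 ± 21.41 CPM in FSClow, 41.98 ± 10.15 CPM in FSChi and 7.140 ± 2.257 CPM in EpCAM, higher by log2 fold changes of 4.07 ± 0.24 (SE, edgeR adjusted p = 4.49e-12) and 2.54 ± 0.24 (SE, adjusted p = 2e-08). Cacnb3, another beta subunit, was at 1.616 ± 1.730, 53.27 ± 28.31 and 105.5 ± 16.95 CPM in the same order, lower in FSClow than in FSChi (adjusted p = 2e-07). Cacna2d2, an auxiliary subunit, was at 20.35 ± 4.965 CPM in FSClow, 22.79 ± 6.135 CPM in FSChi and 0.3325 ± 0.4149 CPM in EpCAM (adjusted p = 1.14e-09 and 3.41e-09). Of 14 tested vesicle transporter and membrane protein genes, 3 were higher and 6 lower. Slc17a6, a vesicular glutamate transporter of neurons, was at 0.2388 ± 0.3214 CPM in FSClow, 17.03 ± 13.19 CPM in FSChi and 53.86 ± 22.25 CPM in EpCAM (adjusted p = 9.58e-10 and 0.0241 against EpCAM). Slc18a3, the vesicular acetylcholine transporter, lies within the Chat locus that the transgene carries; it had 1884 counts in FSClow and none in EpCAM, at least 619.5-fold higher.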

How the data were processed

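RNA of sorted cells was sequenced in 19 libraries. The submitters' processing notes name STAR 2.4.2a, Picard 1.1073, RSEM 1.2.21, featureCounts, DESeq2 and the mouse build mm10, with no order. Raw read counts per gene were deposited by the authors in 1 table, beside a normalized signal table. The normalized signal that the authors deposited was the count divided by 1 factor per library: multiplied back, 100% of values were whole within 0.01 and all 26221 genes equalled a gene of the count table, so it was used only for symbols and the tests ran on the raw counts. They also deposited RSEM expected counts (rounded here to whole numbers) and TPM values per library, per the file headers. Entrez identifiers were named through RefSeq, and 0.987% of counts had no symbol.

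Counts were filtered with filterByExpr, scaled by TMM and tested in edgeR 4.0.16 (quasi-likelihood, R 4.3.3, limma 3.58.1), with all 3 groups in 1 fit, and adjusted over 13340 genes. The test gives no SE: each SE of an edgeR log2 fold change was calculated back as its absolute value divided by the square root of the F statistic. Alternatives were relative log expression scaling, no filter, DESeq2 1.42.0, RSEM expected counts, fits of 2 groups, a replicate block and leaving out each library. The fits were tested on simulated data. Members and gene lists were chosen with earlier results of these data known. Named with values were Snap25, Vamp2, up to 8 called members per direction with the largest change at 10 CPM or more, and the most abundant of each family; others account for their family and were named after their values were seen. Intervals and floors cover counting error only.

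Of the 19 single-library files, 14 correlated best with the table column of their own library. The other 5 correlated best with another column of the same group. For the FSChi replicate 3 file this was no match (r = 0.215): it was nearly empty at 6803 counts and was left out of the TPM values. The files of FSChi replicates 4 and 5 correlated best with the columns of replicates 3 and 4 (r = 0.966 and 0.964). No file correlated best with the column of FSChi replicate 5. Group membership is not touched, but replicate numbers of TPM and counts may differ. Some members are counted but not reported individually here.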

Additional observations from a re-analysis of the deposited data

Results flagged for a closer look

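In groups of 5 or 9 libraries, 10 of 99 gene and group combinations had a library far from the others (Dixon's 95% critical value). Chance gives about 1 in 20 for normally distributed values only. A group at 0 in all but 1 library is always flagged, so the number is a description and no excess is read from it. In EpCAM, Rab3b was at 59.65 CPM in replicate 2, beside 34.36 to 41.42 CPM in the others. In FSClow, most such values were low counts of a gene near 0: Syt7 at 0.7037 CPM in replicate 9, Syt4 at 1.258 CPM and Rab3c at 1.678 CPM in replicate 3, and Sv2c at 1.433 CPM in replicate 4. Stxbp6 was at 4.302 CPM in FSClow replicate 5 and Unc13c at 6.038 CPM in replicate 7. Stxbp5 was at 26.97 CPM in FSClow replicate 7, beside at most 18.04 CPM. Unc13b was at 27.96 CPM in FSClow replicate 5, beside at most 13.88 CPM, and at 24.11 CPM in FSChi replicate 2, beside at most 12.93 CPM.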

How the results depend on the processing

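Of the called members, 40 of 48 in FSClow against EpCAM, 11 of 32 in FSChi against EpCAM and 8 of 30 in FSChi against FSClow were tested and called under every alternative run. All kept their sign wherever they were tested. Leaving out each library gave 11 to 15 higher and 33 to 37 lower members in FSClow against EpCAM, 11 to 14 higher and 11 to 22 lower in FSChi against EpCAM, and 24 to 27 higher and 3 to 4 lower in FSChi against FSClow. In FSChi against EpCAM, the 20 lower members became 12 with RSEM expected counts and 10 without the nearly empty file. Keeping just the libraries whose single file and column agreed, with 2 FSChi libraries and replicate 2 among them, an alternative added after seeing the data, left 7 higher and 5 lower in FSChi against EpCAM, and 1 lower in FSChi against FSClow. Fitting FSChi and FSClow alone gave 14 higher members in place of 27, because 12 did not pass the filter there and 1 was not called. Replicate numbers did not pair the libraries (correlation of same-numbered deviations -0.192 to 0.404). A replicate block left 8 higher members in FSClow against EpCAM, and 8 higher and 1 lower in FSChi against FSClow, where 12 of the 27 were not tested and 7 not called. The same libraries without the block (added after seeing the data) gave 8 higher and, by edgeR, 0 lower, beside 3 lower at an unadjusted p under 0.05 and 3 by DESeq2 on all libraries. Other causes were not tested. Depth limits FSChi replicate 2 most: 3 counts there are 2.411 CPM.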
